A study of Xenopus laevis with 6 samples.

Results

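Of the 45090 rows of a gene count table from whole Xenopus laevis embryos, 114 carry the names of actin-binding proteins, conventional myosins or tubulins. They were taken by name: Arp2/3 subunits (arpc, actr2, actr3), alpha-actinins, cofilins, profilins, filamins, diaphanous formins, WAVE proteins (wasf), myosin heavy and light chains, and alpha-, beta- and gamma-tubulins with the gamma-tubulin complex proteins. The actins themselves are not among them, and no row bore a tropomyosin name. Because 27507 rows begin with a gene model or locus identifier in place of a symbol, genes of these families listed that way would not be found by name, and the profilins are represented by pfn4.S alone, which was too low to test. All embryos were wild-type and were raised to late gastrula (Nieuwkoop and Faber stage 12.5). The untreated group held 3 libraries of intact embryos. The treated group held 3 libraries of half-size twins, grown from blastomeres that were pulled apart when the embryo had 2 cells. A replicate number ties each half-size library to intact siblings, the sources do not state how many embryos made up a library, and sham-handled embryos were not analysed here.

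Actin filaments are nucleated as branches by the Arp2/3 complex, which WAVE proteins activate, and as straight filaments by formins such as the diaphanous proteins. Cofilin severs filaments, alpha-actinin and filamin crosslink them, and non-muscle myosin II, built from heavy chains and light chains, pulls on them. Microtubules are polymers of alpha- and beta-tubulin that grow from gamma-tubulin complexes. In the frog gastrula, actomyosin contraction and filament assembly drive cell shape change, cell intercalation and closure of the blastopore. X. laevis is an allotetraploid, so that most genes exist as 2 homeologs, named L and S.

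Total counts ranged from 20069300 to 29284864 per library, and the 114 genes together held between 0.487% and 0.561% of them. Expression is given as CPM, read counts scaled to a common library size with TMM factors. After a filter on low counts 74 of the 114 genes were tested, while 40 were too low, 10 of those with no count in any library. A count of 0 allowed a level of up to 0.104 to 0.150 CPM (3 counts, depending on the library, for counting error only). Because whole embryos were sequenced, fewer cells of a type and less RNA per cell cannot be told apart. Gene lengths were not used, so CPM values of different genes are not comparable as levels.

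The comparison asked which of these genes differ between embryos of full and of reduced size. With siblings paired, 3 of the 74 tested genes rose in half-size embryos (4.05%, against 1.99% of all 21673 genes tested) and 0 fell (against 3.93%). The genes that rose were myl9.L, a regulatory light chain of myosin II, myh10-1.S, a heavy chain of non-muscle myosin II (the IIB form in mammals), and tubb4a.L, a beta-tubulin. Without pairing, edgeR called 0 of the 74 genes (smallest adjusted p = 0.9998) and 0% of all genes. An unadjusted p under 0.05 was reached there by 3 of the 74 (4.05%, against 3.58% of all genes), and unpaired DESeq2 and limma-voom also called 0 members. Without replicate 3 the paired fit called 0 of 78 members tested, beside 165 of 21928 genes higher and 342 lower.

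myl9.L (model Xelaev18003093m.g) was measured at 22.3, 19.9 and 17.1 CPM in intact replicates 1, 2 and 3. Its half-size siblings gave 34.6, 27.0 and 25.1 CPM. The groups did not overlap, and the half-size library was higher in all 3 pairs, by 0.63, 0.44 and 0.56 log2 units. Means were 19.8 ± 2.64 and 28.9 ± 5.02 CPM (SD, n = 3), and the log2 fold change of the paired fit, written log2FC from here on, was 0.54 ± 0.11 (SE, adjusted p = 0.0159, 1.46-fold). Leaving out replicate 3 kept the size of the change (0.54) but not the call (adjusted p = 0.0593; range 0.000512 to 0.0593 over 8 paired settings). The homeolog myl9.S was at 4.28, 4.24 and 5.42 CPM in intact and 4.67, 5.66 and 6.27 CPM in half-size libraries, higher in each pair, with a log2FC of 0.25 ± 0.16 (SE) that did not pass the threshold (adjusted p = 0.409).

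myh10-1.S (model Xelaev18046824m.g) was at 51.8, 43.9 and 46.9 CPM in intact replicates 1, 2 and 3, and at 59.7, 61.9 and 72.1 CPM in their half-size siblings. Here too every half-size library lay above every intact one. The log2FC was 0.44 ± 0.10 (SE, adjusted p = 0.0305, 1.36-fold). Leaving out replicate 2 or replicate 3 ended the call, with adjusted p of 0.125 and 0.162 (range 0.00098 to 0.162 over 8 paired settings). Its homeolog myh10-1.L went from 11.1 ± 1.33 to 14.2 ± 2.81 CPM (SD, n = 3), with a log2FC of 0.34 ± 0.15 (SE, adjusted p = 0.191).

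tubb4a.L (model Xelaev18019127m.g) was at 14.1, 8.83 and 3.25 CPM in intact replicates 1, 2 and 3, and at 19.1, 12.8 and 8.80 CPM in half-size replicates. The groups overlapped because the replicates differed widely, but the half-size library was higher in each pair, by 0.44, 0.53 and 1.44 log2 units. The log2FC was 0.74 ± 0.18 (SE, adjusted p = 0.0388, 1.67-fold), and without replicate 3 it was 0.48 (adjusted p = 0.131; range 4.9e-05 to 0.131 over 8 paired settings). The homeolog tubb4a.S was measured at 601, 370 and 247 CPM in intact and 559, 389 and 288 CPM in half-size libraries. It showed no called difference (log2FC 0.06 ± 0.08 SE, adjusted p = 0.709). The L copy thus held only 1.30% to 3.30% of the pair's CPM, not corrected for length, and reads assigned to the wrong copy were not tested. Per pair, the log2 ratio of L exceeded that of S by 0.54, 0.46 and 1.21. Whether the copies differed in response was not tested.

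**Figure D1:**
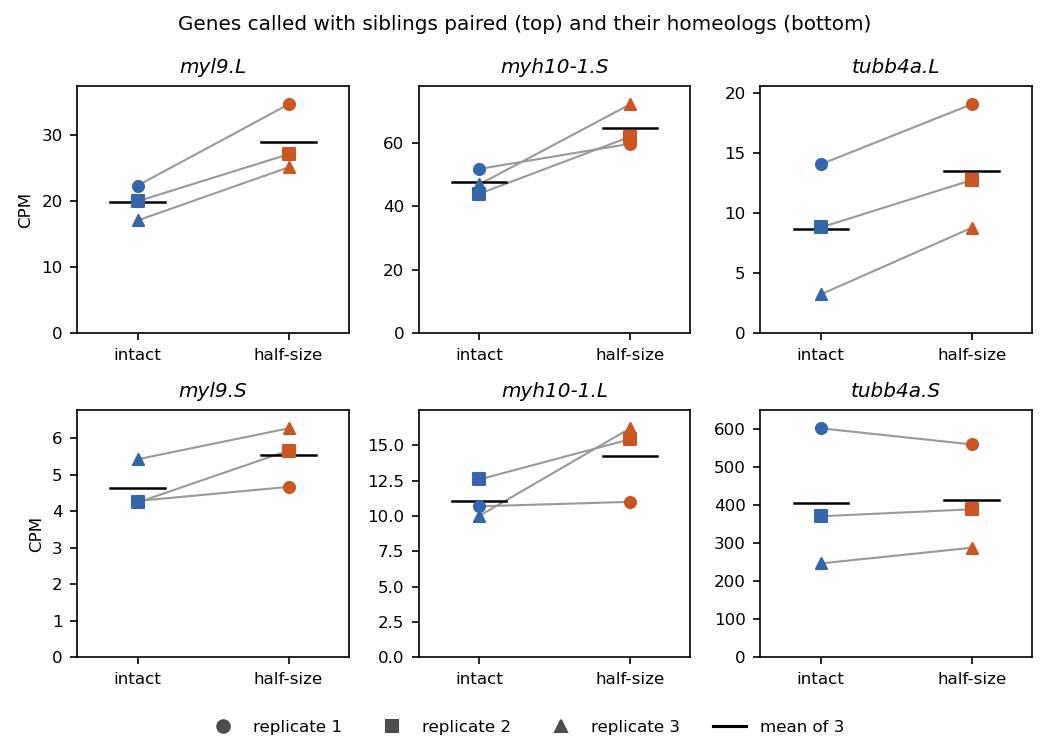
CPM of the 3 genes called with siblings paired (top row) and of their homeologs (bottom row) in intact (blue) and half-size (orange) libraries, with lines joining siblings of 1 replicate number and black bars at the mean of 3. All 3 lines rise for myl9.L, myh10-1.S and tubb4a.L, while tubb4a.S stays near 400 CPM on average with a wide spread between replicates.

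The other myosin II genes of non-muscle cells did not pass the threshold. The homeologs myh10-2.L and myh10-2.S, named like myh10-1, had log2FC values of 0.52 ± 0.43 and 0.0024 ± 0.13 (SE, adjusted p = 0.522 and 0.993). myh9.L, a heavy chain of the IIA form in mammals, was at 195, 146 and 209 CPM in intact and 223, 193 and 242 CPM in half-size replicates 1, 2 and 3, higher in each pair but with overlapping groups. Its log2FC was 0.27 ± 0.08 (SE, adjusted p = 0.0722), and that of myh9.S was 0.31 ± 0.09 (SE, adjusted p = 0.0699). The light chain myl12b.S, which like myl9 is a regulatory chain, was level between the groups at 343 ± 16.1 and 347 ± 20.2 CPM (SD, n = 3), with a log2FC of 0.02 ± 0.07 (SE, adjusted p = 0.928). Summing the 2 homeologs of each gene left myl9 (log2 fold change 0.50, adjusted p = 0.0189) and myh10-1 (0.43, adjusted p = 0.0351) called. Just outside were myh9 (0.28, adjusted p = 0.0513), the alpha-tubulin tuba4 (0.28, adjusted p = 0.0520) and, with a negative value, myh6 (−0.56, adjusted p = 0.0549). Summed tubb4a was no longer called (0.08, adjusted p = 0.592), and summed myh10-2 was not called either (0.04, adjusted p = 0.875).

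Of the 40 members too low to test, 27 were muscle-type myosin chains, and the 5 tested muscle-type chains had log2FC values from −0.66 to 0.27, with 0 called. Muscle-type was set by name (myh1, myh6, myh7, myh8, myl2, myl3, myl4, myl7, myl10 and mylpf). It left out myh11.S, too low to test, and myh15.L (log2FC −0.51 ± 0.34 SE, adjusted p = 0.413). Both ends of the range were the homeologs myh7.L and myh7.S (SE 0.44 and 0.33), at most 1.13 CPM in any library. Of the 28 myosin heavy chain rows 12 were tested, and of the 16 light chain rows 4. Among the members too low to test, none went above 1.63 CPM in any library except the mylpf genes. The cardiac-type heavy chain myh6.L was at 6.32, 4.20 and 4.88 CPM in intact and 3.60, 3.76 and 2.53 CPM in half-size replicates, without overlap. It did not pass the threshold (log2FC −0.64 ± 0.20 SE, adjusted p = 0.0884). Over 8 paired settings the adjusted p of myh6.L ranged from 0.0228 to 0.344, and 2 of them called it lower. Its homeolog myh6.S had a log2FC of −0.51 ± 0.17 (SE, adjusted p = 0.0977).

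Alpha-tubulins had positive log2FC values in 11 of 12 tested genes (beside 50.4% of all genes tested), with a median of 0.24, and 0 were called. Homeologs and similar tubulins were measured in the same 3 pairs, so such counts of signs are not counts of independent genes. The nearest to the threshold was tuba4.S, at 78.1, 51.1 and 79.2 CPM in intact and 98.7, 64.9 and 94.6 CPM in half-size replicates 1, 2 and 3. Its half-size level was higher in each pair by 0.34, 0.34 and 0.26 log2 units, a log2FC of 0.31 ± 0.08 (SE, adjusted p = 0.0505). Paired DESeq2 and limma-voom placed it just inside the threshold (adjusted p = 0.0479 and 0.0483; range 0.0235 to 0.271 over 8 paired settings). tuba4a.S was the alpha-tubulin without overlap between groups, 19.8 ± 1.70 against 24.5 ± 1.57 CPM (SD, n = 3; adjusted p = 0.123). tuba1c.S was at 597 ± 74.9 and 628 ± 12.2 CPM (SD, n = 3; adjusted p = 0.635), and the exception in sign was tuba3c.S (log2FC −0.12 ± 0.07 SE, adjusted p = 0.358). Tubulin proteins of 1 class are similar in sequence. How reads common to several tubulin genes, if any, were assigned is not known here.

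Beta-tubulins were positive in 7 of 8 tested genes (beside 50.4% of all genes tested), with tubb4a.L as the call. Both gamma-tubulin genes, homeologs whose protein nucleates microtubules, were tested and neither was called. The log2FC was −0.09 ± 0.15 for tubg1-like.2.S (SE, adjusted p = 0.778) and 0.56 ± 0.23 for tubg1-like.2.L (SE, adjusted p = 0.178), which was higher in all 3 pairs. Among 7 gamma-tubulin complex proteins, 6 were positive (beside the same 50.4%) and 0 were called. The exception was tubgcp6.L, at 47.3, 80.8 and 73.2 CPM in intact and 38.7, 73.8 and 56.3 CPM in half-size replicates, lower in each pair (log2FC −0.27 ± 0.09 SE, adjusted p = 0.112).

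Filament nucleators and crosslinkers gave 0 calls in the paired edgeR fit, beside 1.99% of all genes higher and 3.93% lower. Tested were 10 Arp2/3, 6 WAVE, 5 alpha-actinin, 3 formin and 3 filamin genes, too few for 0 calls to set them apart. The Arp2/3 complex subunits were split, 5 positive and 5 negative among 10 tested genes, with log2FC values from −0.20 to 0.20. actr3.S, which encodes an actin-related subunit, was without overlap and higher (52.0 ± 6.82 against 59.5 ± 1.45 CPM, SD, n = 3; adjusted p = 0.257). arpc1b.L was without overlap and lower (43.6 ± 0.880 against 38.4 ± 2.56 CPM, SD, n = 3; adjusted p = 0.290). actr2.L, which also encodes an actin-related subunit, had a log2FC of 0.19 ± 0.10 (SE, adjusted p = 0.314).

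Of the WAVE genes, wasf2.L was at 180, 143 and 156 CPM in intact and 195, 183 and 192 CPM in half-size replicates, with every half-size library above every intact one. Its log2FC of 0.26 ± 0.08 (SE) did not pass the threshold (adjusted p = 0.0888). Over 8 paired settings the adjusted p of wasf2.L ranged from 0.0343 to 0.474, and 2 of them called it. The filamin gene flnb.L went from 19.2, 16.5 and 16.2 to 20.6, 24.2 and 30.7 CPM, again without overlap. In edgeR it was not called (log2FC 0.53 ± 0.15 SE, adjusted p = 0.0623), whereas paired DESeq2 called it (adjusted p = 0.0392; range 0.00123 to 0.320 over 8 paired settings), and the estimate ranged from 0.33 without replicate 3 to 0.75 without replicate 1. The cofilin cfl1.L, the alpha-actinin actn4.L and the formin diaph1.L had log2FC values of 0.12 ± 0.08, 0.05 ± 0.08 and −0.03 ± 0.08 (SE), none of them called (adjusted p = 0.40, 0.768 and 0.888).

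**Figure D2:**
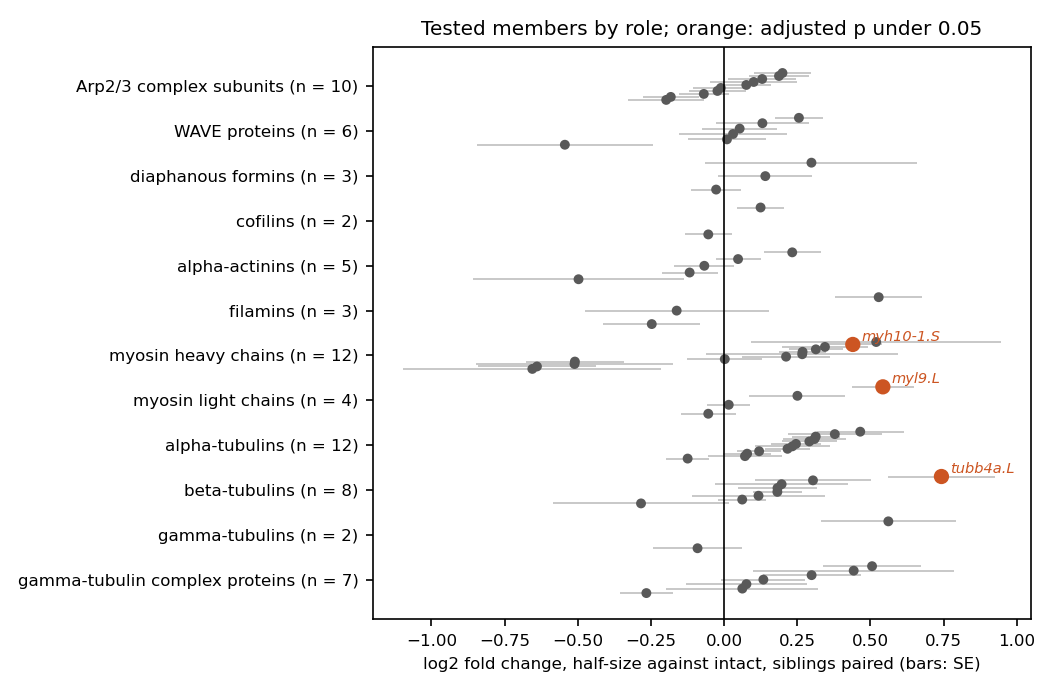
log2FC of each of the 74 tested genes, half-size against intact, by role, with bars of 1 SE and called genes in orange. The 3 called genes lie at 0.44, 0.54 and 0.74; alpha-tubulins lie right of 0 with 1 exception, and Arp2/3 subunits lie on both sides within 0.20.

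Over the 74 tested genes, 52 had a positive log2FC (70.3%, against 50.4% of all genes tested). The median was 0.12, beside 0.0031 over all genes tested. The half-size library was higher in all 3 pairs for 26 of the 74 (35.1%, against 21.7% of all genes tested) and lower in all 3 for 8 (10.8%, against 22.7%). CPM ranges were separate and higher in half-size libraries for 6 genes (8.11%, against 4.14% of all genes) and separate and lower for 2 (2.70%, against 4.9%). The shift was uneven across replicates: the median log2 ratio of the members was 0.03 in pair 1, 0.11 in pair 2 and 0.20 in pair 3, where that of all genes was 0.0065, −0.0069 and −0.0056. The changes were small, and only 3 of the 74 exceeded 1.5-fold in either direction, tubb4a.L, myh6.L and myh7.L. For myh7.L, at a mean of 0.61 CPM, the pairs differed in sign, with log2 ratios of 0.36, −0.14 and −1.74 (log2FC −0.66 ± 0.44 SE, adjusted p = 0.422).

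Levels varied between replicate numbers, with a median of 1.35-fold between the highest and lowest pair mean, against 1.52-fold over all genes tested. Members and all genes were not matched for level, here or in the share over 2-fold below. Counting error widens such folds where counts are low. For 59 of 74 genes the range between replicate numbers, taken from the mean of each sibling pair, was larger than the paired fold change. The matching share over all genes was not computed. A range over 3 pair means and 1 averaged difference are unlike measures, so this count does not rank replicate against group differences. For 12 the range exceeded 2-fold (16.2%, against 25.0% of all genes tested). The muscle filamin flnc.S was at 10.1, 65.7 and 2.91 CPM in intact and 6.46, 74.0 and 1.96 CPM in half-size replicates 1, 2 and 3. Both libraries of replicate 2 stood far above the rest, by up to 28.7-fold between pair means. The fast skeletal muscle light chains mylpf.L and mylpf.S, too low to test, also stood out in replicate 2. They were at 2.92 and 4.24 CPM in intact replicate 2 and 2.75 and 4.11 CPM in half-size replicate 2, and at most 0.0986 CPM elsewhere. The 5 tested muscle-type chains were split. myh1-2-2.L.g, myh6.S and myh7.L had their highest pair mean in replicate 2, myh6.L in replicate 1 and myh7.S in replicate 3. The summed level of 28 muscle lineage rows, which exclude the members, was 591 and 714 CPM in replicate 2 and 255 to 290 CPM in the other 4 libraries, with tnni3.L at 0 in all 6. None of the 12 muscle lineage genes tested was called between groups, and the part of muscle content in these differences was not tested.

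The tubulins had no common order of replicate numbers. Of the 20 alpha- and beta-tubulins tested, 10 had their highest pair mean in replicate 1, 8 in replicate 2 and 2 in replicate 3. tuba4.L was highest in replicate 1 (94.8 and 106 CPM in intact and half-size), lowest in replicate 2 (28.4 and 34.7 CPM) and between them in replicate 3 (57.6 and 70.1 CPM). In tubb4a.S and tubb4a.L replicate 1 was highest and replicate 3 lowest in both groups.

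**Figure D3:**
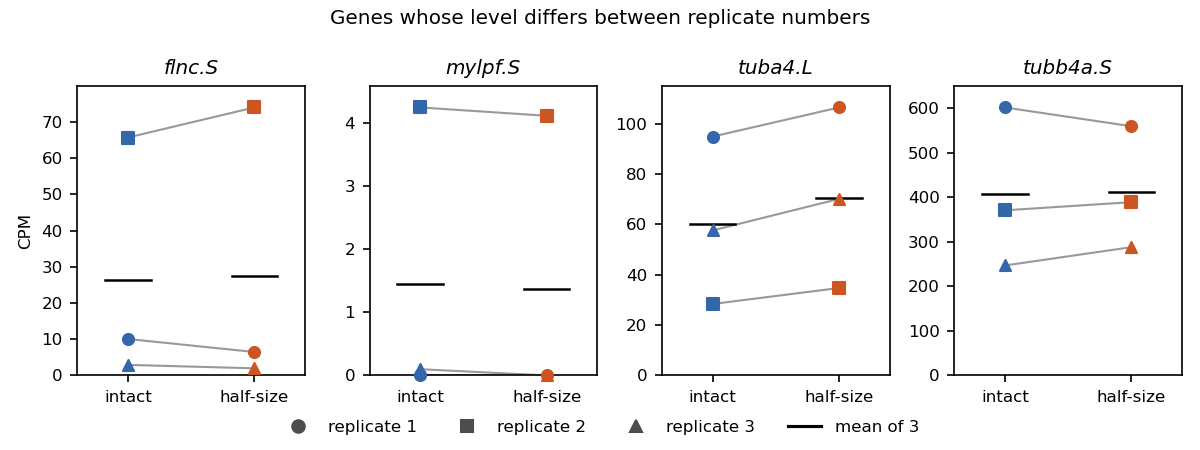
CPM of flnc.S, mylpf.S, tuba4.L and tubb4a.S in intact (blue) and half-size (orange) libraries, with lines joining siblings and black bars at the mean of 3. Replicate 2 stands apart for flnc.S and mylpf.S, at 65.7 to 74.0 and 4.11 to 4.24 CPM, and replicate 1 is highest for both tubulin genes.

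Of the 31 homeolog pairs with both copies tested, 17 had positive paired fold changes in both, 5 negative in both and 9 of opposite sign. The L copy held more of the pair's CPM in all 6 libraries in 13 pairs and the S copy in another 13. The L share spanned, for example, 75.8% to 81.5% L for myh9 and 10.7% to 12.4% L for myl12b. It was always above 90% or below 10% in 3 pairs, with L at 99.0% to 99.5% for diaph1, 96.1% to 97.1% for wasf2 and, as given above, near the bottom for tubb4a.

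**Figure D4:**
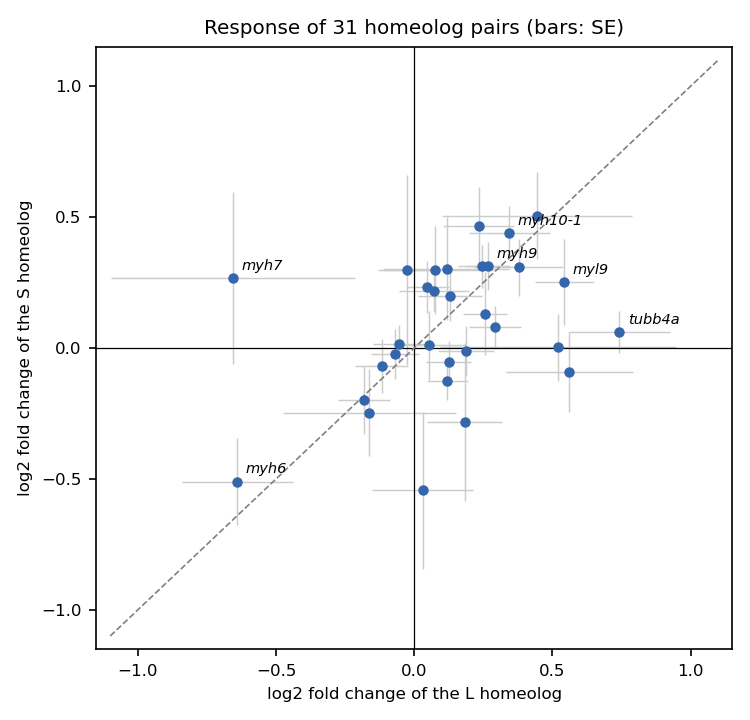
log2FC of the L homeolog (horizontal axis) against that of the S homeolog (vertical axis) for 31 pairs, with bars of 1 SE and a dashed line of equal response. Most pairs fall in the upper right part (17 pairs), myl9 and myh10-1 among them, and tubb4a lies far to the right at 0.74 for L and 0.06 for S.

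Other regulators of the same filaments were read from lists of genes outside the name rule. These lists were chosen with earlier results of these data known, so shares called in them do not test an enrichment. Of 88 tested actin regulators, 6 rose and 3 fell with siblings paired, and of 51 tested microtubule regulators 0 rose and 0 fell, beside 1.99% of all genes higher and 3.93% lower. Without pairing edgeR called 0 in either list, and an unadjusted p under 0.05 was reached by 4 of the actin and 0 of the microtubule regulators, beside 3.58% of all genes. abi1.L, a subunit of the WAVE regulatory complex, was at 18.2, 14.7 and 15.1 CPM in intact and 27.0, 18.7 and 22.2 CPM in half-size replicates (log2FC 0.49 ± 0.11 SE, adjusted p = 0.0306), and cyfip2.S, also of that complex, at 10.8, 10.2 and 5.91 against 15.2, 13.8 and 13.9 CPM (0.70 ± 0.17 SE, adjusted p = 0.0333). Their ranges did not overlap. The smallest p was that of gsn.L, gelsolin, which severs and caps filaments (0.73 ± 0.14 SE, adjusted p = 0.0156). cyfip1.S, of the same complex, and the capping protein gene capza1.L were also among the rises (adjusted p = 0.0433 and 0.0419). Other genes of the WAVE regulatory complex were not called: the log2FC was −0.09 for cyfip1.L, −0.19 for brk1.S, 0.21 for abi2.L, 0.10 for abi2.S and 1.03 ± 0.53 (SE, adjusted p = 0.286) for cyfip2.L, and 0 of the 6 WAVE genes themselves were called.

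The falls were those of ezr.L, ezrin, which links actin to the membrane, and of 2 unconventional myosins, myo10.L, found in filopodia, and myo9a.L. ezr.L went from 3.95, 6.39 and 5.96 to 2.57, 3.06 and 2.98 CPM (log2FC −0.90 ± 0.18 SE, adjusted p = 0.0185). The log2FC values of myo10.L and myo9a.L were −0.66 ± 0.14 and −0.64 ± 0.15 (SE, adjusted p = 0.0233 and 0.0356). Their homeologs myo10.S and myo9a.S were not called, with log2FC values of −0.14 ± 0.14 and 0.11 ± 0.21 (SE, adjusted p = 0.630 and 0.803). Without replicate 3 none of the 9 calls among actin regulators remained.

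Some markers of other cell types moved between the groups as well. Their lists were also chosen with earlier results of these data known, so shares called in them do not test an enrichment. In the paired fit 8 of 27 tested multiciliated cell genes fell and 0 rose (beside 3.93% of all genes lower and 1.99% higher). The falls were the L and S copies of ccno, foxj1, foxn4 and myb. The other 19 were not called, with log2FC values from −0.39 (ccdc39.L) to 0.46 (spag6.S). The summed level of the list was 396 to 427 CPM in intact and 322 to 346 CPM in half-size libraries, with tppp3.S at 0 in all 6. Of 26 tested epidermis genes 12 fell and 1 rose (krt18.S), against the same shares of all genes, with summed levels of 5664 to 8210 CPM in intact and 4639 to 7520 CPM in half-size libraries. The falls were both copies of tp63, krt12, grhl3, foxi1 and dlx3, with itln1.L and cdh1.S. The other 13 were not called, among them krt8.L, krt8.S and krt18.L. The neural list gave 1 rise (nefl.L) and 1 fall (irx3.S) among 23 tested genes, with sums of 1470 to 2099 and 1605 to 2091 CPM. Their part in the differences of the cytoskeletal genes was not tested.

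In the authors' deposited table, with repeated names left out, 68 of the 114 genes had an adjusted p, and it was 1 for every one of them.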

How the data were processed

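The authors deposited whole-number read counts per gene and library, not normalized. TopHat2, HTSeq and DESeq appear in the submitters' processing notes; the sources used here give no build, no annotation and no rule for shared reads. From the authors' deposited table of their own comparison only the adjusted p-value was used, and 10 rows with repeated names were left out.

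All genes were fitted with edgeR 4.0.16 (glmQLFit, glmQLFTest) in R 4.3.3, after TMM scaling and filterByExpr, with two-sided tests and Benjamini-Hochberg adjustment over 21673 genes (threshold 0.05). The planned fit had the group alone; the paired fit adds the replicate number as a block. Siblings named in the labels give the pairing, and deviations from group means correlated at 0.75, 0.82 and 0.68 within numbers. Unless stated, single-gene values are from the paired fit. Alternatives were DESeq2 1.42.0, limma-voom (limma 3.58.1), other size factors, no filter, summed homeologs and left-out libraries. The procedures were tested on simulated data. All changes put into those data were larger than the changes called among the members, so changes of that size were not covered. No library pair differed by as little as sampling noise (chi-square per degree of freedom 13.3 to 91.3). Whether the replicates were separate clutches is not stated. Unpaired p-values set the group difference against the spread between these samples. Paired p-values set it against the spread that remains after the replicate number is taken out.

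Members and lists were chosen with earlier results of these data known. Named genes are those called in either fit, their homeologs and the gene with the highest mean CPM over all libraries in each role class, and up to 4 called genes of each of the 2 regulator lists (actin, microtubule) with the smallest p in each direction; others were singled out after their values were seen. 1 regulator gene that this rule names is not reported here. List symbols found were 57 of 107 for actin and 33 of 72 for microtubule regulators.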

Additional observations from a re-analysis of the deposited data

How the results depend on the processing

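Without pairing, the planned fit, the other size factors, no filter and limma-voom called 0 genes; DESeq2 called 52, none of them a member or a listed regulator. With the replicate block, edgeR called 3 members higher and 0 lower, 1283 genes in all and 9 actin regulators. With DESeq2's size factors in the paired fit these were 4 higher, 1271 and 9, with paired DESeq2 5, 1118 and 8, and with paired limma-voom 4, 1364 and 9. Without a filter the paired fit called 10 members higher and 1 lower (myh6.L), 2568 genes, 14 actin and 1 microtubule regulators; the cause was not tested. With homeologs summed it called 2 members higher and 1044 genes. Leaving out 1 library (unpaired) or 1 pair (paired) gave 0 to 7 members higher, 0 to 1 lower, 0 to 1471 genes, 0 to 10 actin and 0 to 2 microtubule regulators. The paired fit called 7 of 79 members without replicate 1, beside 1471 of 22013 genes. Without replicate 2 it called 2 of 73 members higher and 1 lower (myh6.L), beside 1055 of 21988 genes. Without replicate 3 it called 0 of 78 members, beside 507 of 21928 genes. All named calls had the same sign in every setting run.

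Some genes that were not called changed sign. flnc.S, at 0.06 in the unpaired fit, was −0.25 with pairing, −0.24 with other size factors or no filter (paired), −0.27 in paired DESeq2, −0.54 in limma-voom and −0.10 when that was paired, −0.61 and −0.16 in the paired fit without replicates 2 and 3, and −2.65 to 2.09 with a library left out. Leaving out 1 library or pair also turned the sign of tubb4a.S (−0.26 to 0.42, and −0.017 in the paired fit without replicate 3), myl12b.S (−0.012 to 0.065, and −0.0098 in the paired fit without replicate 1), actn4.L (−0.074 to 0.16), diaph1.L (−0.12 to 0.025, and 0.020 in the paired fit without replicate 1), tubg1-like.2.S (−0.31 to 0.10, with 0.052 without intact replicate 2), tuba3c.S (−0.28 to 0.057) and tuba4.L (−0.20 to 0.72 unpaired; 0.22 to 0.30 and never reversed in the paired settings).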
